A study of Mus musculus with 3 samples.

Results

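The MHC class II genes were followed through skin immune cells in 3 single-cell 3′ RNA sequencing libraries of mouse dorsal skin. The group held 9 genes, found by symbol among the 32285 genes of the deposited matrices: H2-Aa (ENSMUSG00000036594), H2-Ab1 (ENSMUSG00000073421), H2-Eb1 (ENSMUSG00000060586), H2-DMa (ENSMUSG00000037649), H2-DMb1 (ENSMUSG00000079547), H2-DMb2 (ENSMUSG00000037548), H2-Oa (ENSMUSG00000024334), Cd74 (ENSMUSG00000024610) and Ciita (ENSMUSG00000022504). All 9 were present in every library. They were selected on the levels of H2-Aa and Cd74, which had already been seen to be lower in the macrophages of the irradiated libraries, so the macrophage values describe that pattern and carry no test. The groups, with 1 library each, were unirradiated wild-type C57Bl/6 skin (WT_Ctrl), wild-type C57Bl/6 skin exposed to UVB 3 times (WT_UV), and UVB-exposed skin of Rosa26-rtTA; Tre-Ptgs2 mice (RP) on the same schedule and a C57Bl/6 background (RP_UV). The paper names both C57Bl/6N and C57Bl/6J for its lines, without saying which these libraries came from. In RP mice, rat Ptgs2, which encodes the prostaglandin enzyme Cox-2, is induced with doxycycline, and the transgene is not limited to immune cells. All mice were 8-week-old males in telogen, the resting phase of the hair cycle, and all suspensions were enriched with CD45+ magnetic beads. Whether the wild-type mice of these libraries also received doxycycline is not given in the sources used here.

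MHC class II molecules display peptides from internalised material to CD4+ T cells, and are carried mainly by professional antigen-presenting cells such as dendritic cells, Langerhans cells, B cells and some macrophages. H2-Aa and H2-Ab1 encode the alpha and beta chains of the I-A molecule, and H2-Eb1 encodes the beta chain of I-E, whose alpha chain gene is not expressed in mice of the b haplotype such as C57Bl/6. Cd74 is the invariant chain, which fills the peptide groove and guides new class II molecules to endosomes. There H2-DM, a heterodimer of H2-DMa with H2-DMb1 or H2-DMb2, exchanges the remnant of Cd74 for peptide, and H2-O, which contains H2-Oa, restrains H2-DM. Ciita is the coactivator that is recruited to the promoters of all these genes and sets their transcription. H2-DMb1 and H2-DMb2 are near-identical copies, so reads could have been divided between them, and their separate values are uncertain.

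The promoters of this family share a module of short elements, and the stretches below are shown because they are the DNA through which the members can be regulated together. RefSeq promoter entries (GRCm38.p6, each of 300 bases around an annotated start) matched 6 of the 9 members. H2-Ab1, Cd74 and Ciita had none. The letters TGATTGG, the core of the element called Y, were searched on both strands, together with GNAAC, letters found in the element called X, when it began upstream and left 10 to 30 bases between them. Both strings were settled with these sequences in view. TGATTGG was held by 5 of the 6 members with an entry and GNAAC preceded it in 4. Among all 32851 promoter entries, 7.82% held TGATTGG and 0.581% held the pair. Each line gives positions -130 to -31 relative to the annotated start, 5′ to 3′ on the strand of the gene, and capitals mark the found letters.
H2-Aa, chr17:34287854-34287953, minus strand: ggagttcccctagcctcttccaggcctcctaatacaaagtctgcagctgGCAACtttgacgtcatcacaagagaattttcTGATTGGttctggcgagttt
H2-Eb1, chr17:34305737-34305836, plus strand: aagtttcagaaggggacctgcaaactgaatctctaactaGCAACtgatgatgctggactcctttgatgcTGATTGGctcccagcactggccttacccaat
H2-DMb1, chr17:34153061-34153160, plus strand: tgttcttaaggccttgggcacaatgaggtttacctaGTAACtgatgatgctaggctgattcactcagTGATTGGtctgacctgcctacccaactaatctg
H2-DMb2, chr17:34145119-34145218, plus strand: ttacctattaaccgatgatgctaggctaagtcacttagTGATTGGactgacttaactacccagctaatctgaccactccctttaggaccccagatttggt
H2-Oa, chr17:34092249-34092348, plus strand: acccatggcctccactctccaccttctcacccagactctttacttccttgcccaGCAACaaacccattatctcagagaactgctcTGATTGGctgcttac
In the 4 members with both strings, 25 bases (H2-Eb1) or 26 bases (H2-Aa, H2-DMb1 and H2-Oa) separated them. In H2-DMb2 the letters TTAAC stand in a stretch much like that around GTAAC of H2-DMb1. A missed string therefore does not mean that the element is absent. Neither of the 2 entries of H2-DMa held TGATTGG. A match is a description of these letters, and no binding was measured.

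The libraries contributed 5309, 5225 and 6070 cells after filtering, in the order WT_Ctrl, WT_UV and RP_UV, with medians of 4246, 10557 and 3774 unique molecular identifiers (UMIs, one for each captured RNA molecule) per cell. Levels are therefore given as CPM, the UMIs of a gene per 1000000 UMIs of all genes in a class, with exact Poisson 95% intervals, and folds as ratios of CPM with exact binomial 95% intervals. These intervals cover counting error only, and no value had a replicate check, because each group had 1 library. WT_Ctrl and RP_UV shared a flow cell and WT_UV was run on another, so that run and group cannot be told apart in a comparison with WT_UV, whereas RP_UV against WT_Ctrl lies within the run but differs in both irradiation and genotype. Between 8 and 11 cell barcodes were shared by any pair of libraries. Cell classes were rebuilt from marker genes with the class II genes left out of the clustering, and each name stands for cells that are "-like" that type. Of the markers fixed for a class, 7 of 7 were at least 2-fold higher in macrophages with Lyve1 than in other cells, 15 of 15 in macrophages without Lyve1, 13 of 13 in monocytes, 10 of 11 in Cd209a dendritic cells, 10 of 10 in type 1 and in mature dendritic cells, 6 of 6 in Langerhans cells and 10 of 12 in innate lymphoid cells. The marker lists also named the clusters, and Lyve1 itself divided the macrophages, so these counts describe the classes and do not test their names. Clusters that matched no class held 12.2%, 20.3% and 9.13% of cells.

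In unirradiated skin, the class II genes separated the antigen-presenting classes from the other named classes. Summed over H2-Aa, H2-Ab1, H2-Eb1 and Cd74 (the 4 major genes), Cd209a dendritic cells of WT_Ctrl had 94710 CPM (94369 to 95051), Langerhans cells 83214 CPM (82233 to 84205), type 1 dendritic cells 60105 CPM (59466 to 60749) and mature dendritic cells 46522 CPM (45298 to 47771). Macrophages followed with 33962 CPM (33821 to 34104) and monocytes with 33519 CPM (32869 to 34178), neighbours whose intervals overlapped. Macrophages without Lyve1 had 42047 CPM (41851 to 42244), and those with Lyve1, a hyaluronan receptor that marks perivascular macrophages, had 19231 CPM (19052 to 19411). A small set of 56 cells with markers of both macrophages and monocytes had 52434 CPM (51563 to 53316). Innate lymphoid cells stood far below at 942 CPM (769 to 1142), and keratinocytes at 373 CPM (360 to 387). Clusters that matched no class, with 646 cells, had 44286 CPM (44078 to 44495), within the range of the antigen-presenting classes.

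**Figure D1:**
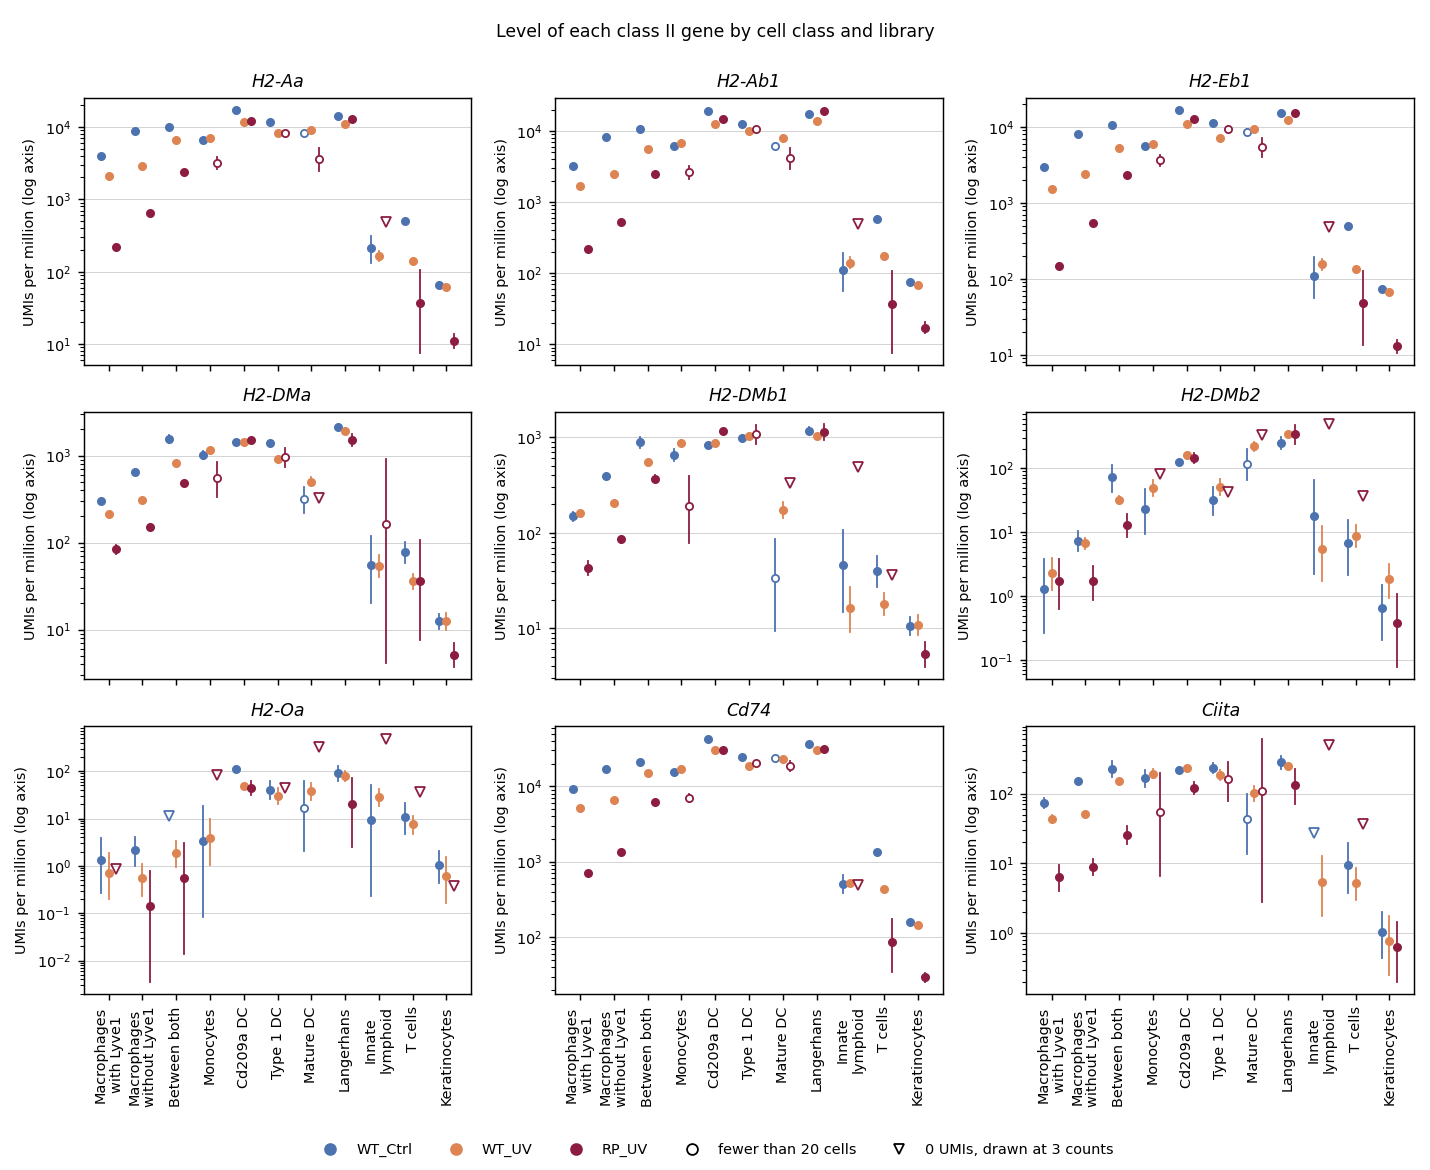
Level of each of the 9 genes (CPM, log axis) in each cell class of WT_Ctrl, WT_UV and RP_UV. Points are sums over the cells of a class and bars are exact Poisson 95% intervals, open points mark classes with fewer than 20 cells, and triangles mark 0 UMIs drawn at 3 counts. The H2-Aa level of macrophages with and without Lyve1, pooled, is 7132, 2687 and 500 CPM in WT_Ctrl, WT_UV and RP_UV. The H2-Aa points of Cd209a dendritic cells lie at 16904, 11498 and 12006 CPM.

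In macrophages, the levels of the chains, the invariant chain and the coactivator were lower in WT_UV than in WT_Ctrl and lower again in RP_UV. The macrophage class had 1712, 1653 and 2036 cells in the same order of libraries. It leaves out the cells between macrophages and monocytes (56, 500 and 321 cells), which had higher levels in every library. The folds below therefore depend on where that boundary was drawn. H2-Aa had 7132 CPM (7067 to 7197) in WT_Ctrl, 2687 CPM (2664 to 2710) in WT_UV and 500 CPM (487 to 514) in RP_UV. The level was 2.65 times lower in WT_UV than in WT_Ctrl (2.62 to 2.69), and 5.37 times lower in RP_UV than in WT_UV (5.22 to 5.53). Between the libraries that shared a run, H2-Aa was 14.3 times lower in RP_UV (13.9 to 14.7). H2-Ab1, its partner chain, had 6405, 2246 and 423 CPM, which was 2.85 times lower (2.81 to 2.89) and then 5.31 times lower (5.15 to 5.47). H2-Eb1 had 6203, 2143 and 414 CPM, 2.89 times lower (2.86 to 2.93) and then 5.17 times lower (5.02 to 5.34). No interval of a chain in one library overlapped that of the same chain in another. Cd74 had 14222 CPM (14130 to 14314), 6246 CPM (6211 to 6280) and 1141 CPM (1121 to 1162), and was 2.28 times lower (2.26 to 2.30), then 5.47 times lower (5.37 to 5.58).

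Ciita, the coactivator, had 124 CPM (115 to 132), 48.2 CPM (45.2 to 51.3) and 8.11 CPM (6.48 to 10.0) in WT_Ctrl, WT_UV and RP_UV, from 802, 975 and 85 UMIs. Its level was 2.56 times lower in WT_UV (2.33 to 2.82), and 5.94 times lower in RP_UV than in WT_UV (4.75 to 7.50). The folds of Ciita thus lay beside those of the chains. The peptide exchange genes differed less between the libraries. H2-DMa had 529, 285 and 130 CPM, 1.85 times lower (1.78 to 1.93) and then 2.19 times lower (2.06 to 2.32). H2-DMb1 had 310, 193 and 71.7 CPM, 1.61 times lower (1.52 to 1.69) and then 2.69 times lower (2.49 to 2.91). From WT_Ctrl to RP_UV, H2-DMa was 4.06 times lower (3.81 to 4.32) and H2-DMb1 4.32 times lower (3.97 to 4.71), against 12.5 times (12.2 to 12.7) for Cd74. H2-DMb2 and H2-Oa were barely detected, with 34, 112 and 18 UMIs of H2-DMb2 and 12, 12 and 1 UMIs of H2-Oa in the whole class.

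The shares of genes past 2-fold put these values in scale. Among genes with at least 20 CPM in 1 of the libraries compared, 0.719% of 5979 genes were at least 2-fold lower in macrophages of WT_UV than of WT_Ctrl, and 5 of the 7 members at that level were among them, namely H2-Aa, H2-Ab1, H2-Eb1, Cd74 and Ciita. From WT_UV to RP_UV, 2.27% of 6027 genes were at least 2-fold lower, with all 7 members among them. From WT_Ctrl to RP_UV the share was 3.84% of 6089 genes, again with all 7. H2-DMb2 and H2-Oa were under 20 CPM and were not counted. Because the members were picked for this contrast, nothing is read from these counts beyond their values. Ordered from the lowest fold of WT_UV over WT_Ctrl, H2-Eb1 stood at position 14, H2-Ab1 at 16, H2-Aa at 19, Ciita at 23 and Cd74 at 37. For RP_UV over WT_UV, Cd74, Ciita, H2-Aa, H2-Ab1 and H2-Eb1 held positions 6 to 10.

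**Figure D2:**
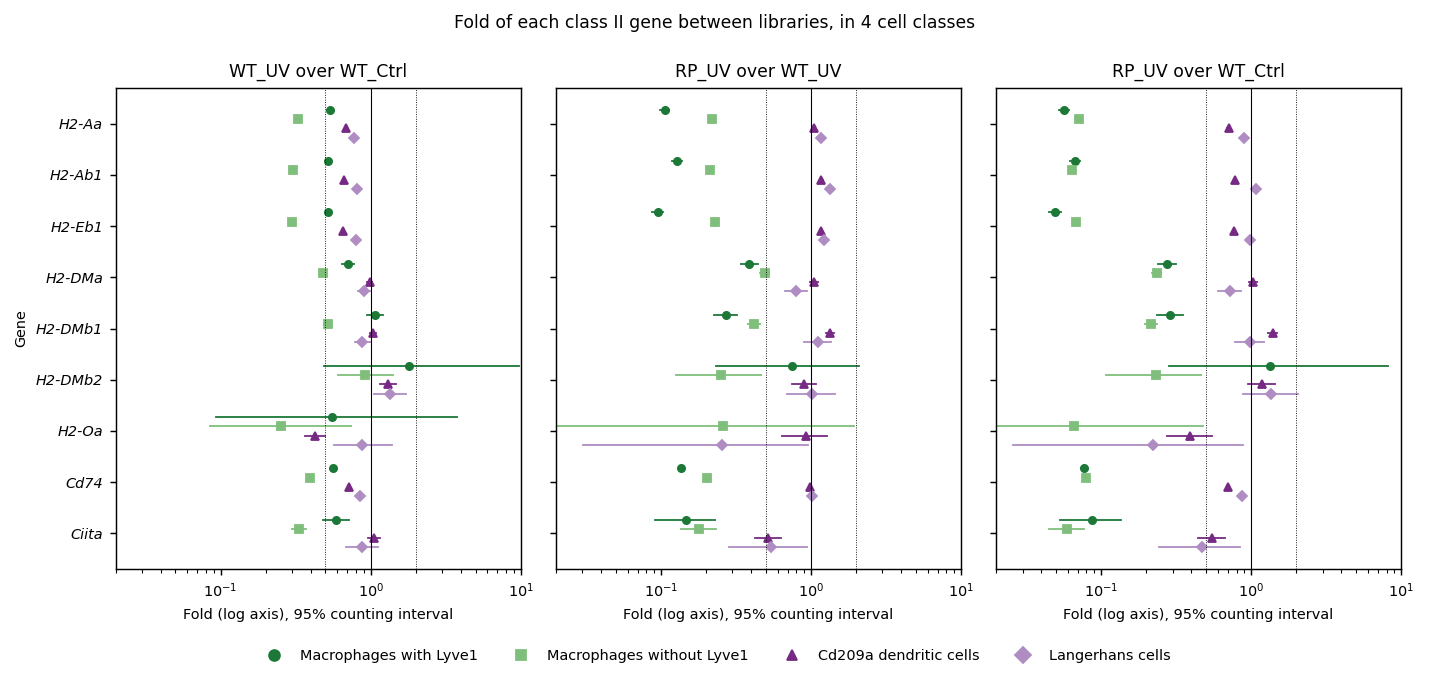
Fold of each class II gene between libraries (log axis) in 4 cell classes, 1 panel for each contrast, with bars showing exact binomial 95% intervals for counting error. In macrophages, H2-Aa, H2-Ab1, H2-Eb1, Cd74 and Ciita lie to the left of H2-DMa and H2-DMb1, whereas in Cd209a dendritic and Langerhans cells most points lie near a fold of 1.

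The difference was present in macrophages with and without Lyve1, in unequal steps. In macrophages with Lyve1 (676, 549 and 793 cells), the 4 major genes summed to 19231, 10456 and 1289 CPM. That sum was 1.84 times lower in WT_UV (1.82 to 1.86) and 8.11 times lower in RP_UV than in WT_UV (7.87 to 8.36). In macrophages without Lyve1 (1036, 1104 and 1243 cells), it was 42047, 14410 and 3064 CPM, 2.92 times lower (2.90 to 2.94) and then 4.70 times lower (4.64 to 4.77). The intervals of the corresponding folds did not overlap between the classes, so that the step from WT_Ctrl to WT_UV was larger without Lyve1 and the step from WT_UV to RP_UV was larger with it. The order of the first step depended on how the classes were made: the log2 fold of the 9 members was -0.86 with Lyve1 and -1.53 without, but -1.45 and -1.37 with classes from marker UMIs of each cell, and -1.21 and -1.32 when macrophages were split by a Lyve1 UMI in each cell. The order of the second step was the same in those settings, at -2.51 against -1.81 and -2.50 against -2.17. From WT_Ctrl to RP_UV the sum was 14.9 times lower with Lyve1 (14.5 to 15.4) and 13.7 times without (13.5 to 13.9). Which class differed more also depended on the classes, since the log2 fold of the 9 members was -3.79 with Lyve1 and -3.71 without, but -3.40 and -4.28 without integration, and -3.95 and -3.18 with marker UMIs. In cells with Lyve1, H2-Eb1 had 2957, 1540 and 146 CPM, the last 20.2 times below the first (18.5 to 22.2). H2-DMb1 was level between WT_Ctrl and WT_UV there, with 149 CPM (134 to 166) and 159 CPM (149 to 170), and had 43.1 CPM (36.5 to 50.6) in RP_UV. The background shares of genes at least 2-fold lower were 0.681%, 2.61% and 3.09% with Lyve1, where 0, 7 and 7 of the 7 measured members were among them, and 1.09%, 2.75% and 5.13% without it, where 6, 7 and 7 were.

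The libraries filled the macrophage clusters unevenly. Of the 16 clusters with 20 or more cells of a library, 5 had that many in 1 library, 8 in 2 and 3 in all 3. In the 7 clusters shared by WT_Ctrl and WT_UV, which held 91.9% and 64.8% of their macrophages, the 4-gene level was lower in WT_UV in 7 of 7, by 1.35 to 2.38 times. WT_UV and RP_UV shared 6 clusters with 29.3% and 15.5% of their macrophages, and the level was lower in RP_UV in 6 of 6, by 1.64 to 5.64 times. WT_Ctrl and RP_UV shared 4 clusters, with 24.9% and 13.4% of theirs, and the level was lower in RP_UV in 4 of 4, by 2.20 to 6.55 times. The contrasts with RP_UV thus rest mostly on cells of different clusters. Among macrophages with Lyve1, the largest group of each library was in a different cluster. The 526 cells of WT_Ctrl shared theirs with 54 cells of WT_UV (18844 and 12057 CPM), the 442 of WT_UV shared theirs with 55 of WT_Ctrl (10077 and 22893 CPM), and the 690 of RP_UV were in a cluster with under 20 cells of any other library. In each of the 3 clusters with 20 or more cells in every library, the 4-gene level was highest in WT_Ctrl and lowest in RP_UV. One of them, with 105, 140 and 107 cells, had 53191, 25844 and 8121 CPM. Another, with 212, 28 and 26 cells, had 64814, 48167 and 29439 CPM. The remaining one, in the class with Lyve1 and with 78, 33 and 73 cells, had 14796, 6438 and 2594 CPM. The lowest clusters of RP_UV reached 1002 CPM in 690 cells with Lyve1 and 1091 CPM in 536 cells without it.

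**Figure D3:**
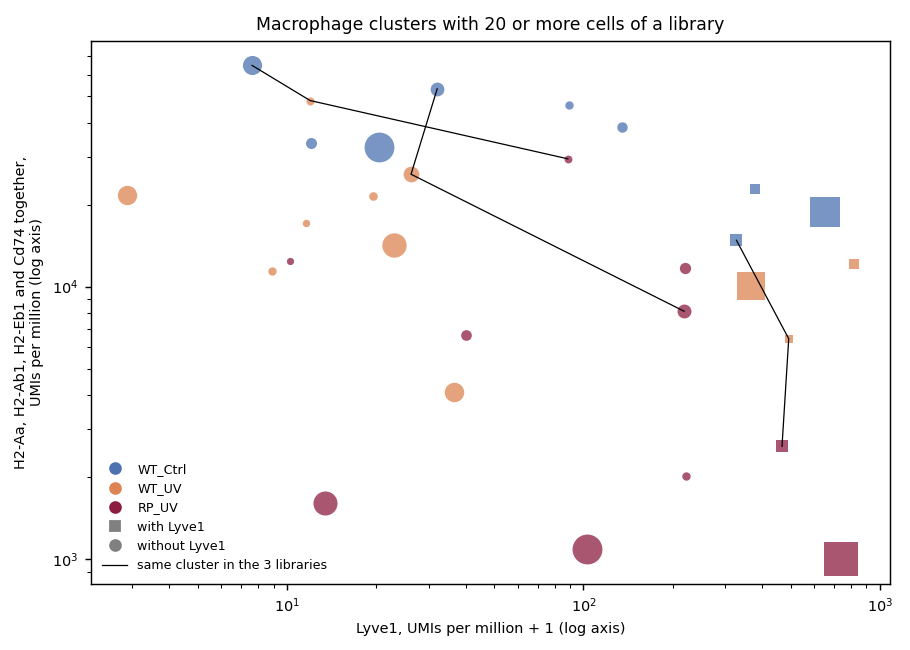
Summed level of H2-Aa, H2-Ab1, H2-Eb1 and Cd74 against the level of Lyve1 (CPM, log axes) in the 30 pairs of macrophage cluster and library with 20 or more cells. Squares are clusters with Lyve1, circles clusters without it, and lines join the 3 clusters that each library shared, in which the level goes from 53191 to 25844 to 8121 CPM, from 64814 to 48167 to 29439 CPM and from 14796 to 6438 to 2594 CPM.

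In macrophages, most marker sums of other antigen-presenting cells had the library order of the class II level, but that of Langerhans cells did not. The 11 markers fixed for Cd209a dendritic cells summed to 4311 CPM in macrophages of WT_Ctrl, 2709 CPM in WT_UV and 1724 CPM in RP_UV, with 0 of 11 markers at 0 in any library. Most of that sum was Mgl2, with 2219, 1152 and 574 CPM, and Clec10a, with 1578, 1122 and 988 CPM, lectins that skin macrophages also carry. Cd209a itself had 438, 364 and 120 CPM. Kmo had 43.1, 32.7 and 20.7 CPM in macrophages, against 83.6, 73.7 and 29.7 CPM in Cd209a dendritic cells. Zbtb46, a transcription factor of conventional dendritic cells, had 7.85, 6.57 and 4.29 CPM, against 25.9, 22.5 and 12.6 CPM. Napsa had 11.4, 17.1 and 11.4 CPM in macrophages and Tnip3 10.2, 10.2 and 4.68 CPM. Other markers of the list were close to 0 in these macrophages, with 0.154, 1.24 and 0.191 CPM of the chemokine Ccl17, 1.23, 0.741 and 0.0954 CPM of the receptor Flt3, 0.616, 0.395 and 0.668 CPM of Plet1, and 1.85, 1.93 and 0.382 CPM of Klrd1. In Cd209a dendritic cells of the same libraries, Ccl17 had 81.7, 176 and 421 CPM. The 10 markers of type 1 dendritic cells summed to 611, 479 and 325 CPM in macrophages, with 0, 0 and 1 of them at 0, mostly Naaa (404, 314 and 204 CPM) and Irf8 (164, 122 and 85.0 CPM), while their receptor Xcr1 had 0.308, 0.247 and 0.0954 CPM. The 8 B cell markers summed to 579, 354 and 134 CPM, with 5, 4 and 4 of them at 0. That sum was nearly all Ighm, with 551, 338 and 127 CPM. The 15 macrophage markers summed to 49121, 40296 and 51329 CPM in macrophages. The part of cells with these dendritic and B cell markers in the class II values was not tested.

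Per cell, class II RNA in macrophages differed across the whole distribution, at the lower quartile, the median and the upper quartile. Each cell was thinned to 2000 UMIs so that depth could not set the shares, which left 1432, 1573 and 1797 macrophages and dropped 280, 80 and 239 shallower ones. The median macrophage of WT_Ctrl held 65 UMIs of the 4 major genes (quartiles 29 and 102), that of WT_UV held 19 (6 and 46), and that of RP_UV held 1 (0 and 4). Cells with 60 or more of these UMIs made up 53.4% of macrophages in WT_Ctrl, 17.7% in WT_UV and 2.2% in RP_UV. Cells with 0 to 9 made up 9.29%, 34.0% and 86.5%. Thus the upper range was occupied in all libraries, but by few cells in RP_UV. At least 1 UMI of H2-Aa was found in 93.9% of macrophages in WT_Ctrl (Wilson 95% interval 92.49 to 94.99), in 79.7% of those of WT_UV (77.60 to 81.57) and in 28.4% of those of RP_UV (26.40 to 30.57). Before thinning the shares were 93.8%, 92.7% and 37.9%. Keratinocytes, which should lack the gene in this skin, gave 8.1%, 10.5% and 2.1%, at median depths of 6065, 9219.5 and 5918.5 UMIs before thinning, against 3721.5, 10933 and 4530 in macrophages. A UMI of Ciita was seen in 21.4%, 9.85% and 1.8% of macrophages, against at most 0.3% of keratinocytes.

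**Figure D4:**
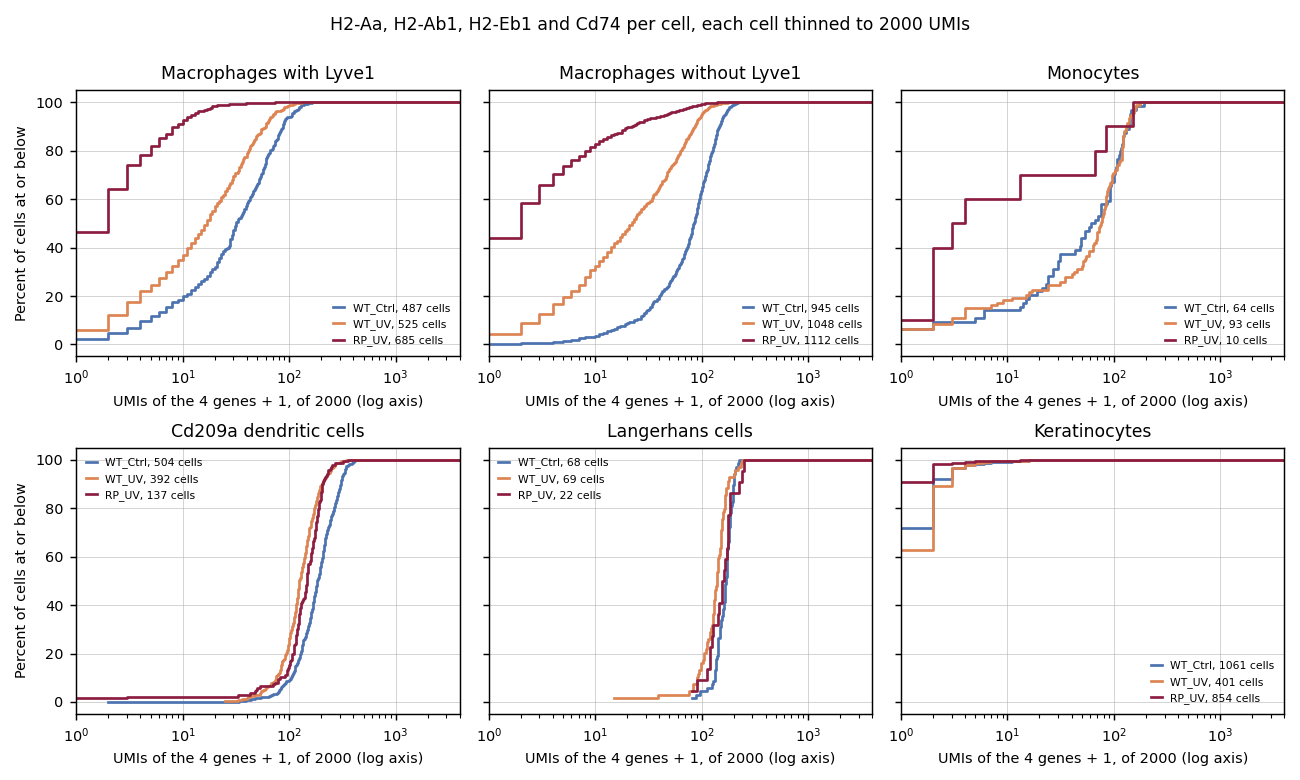
Cumulative share of cells (percent, vertical axis) at or below a number of UMIs of H2-Aa, H2-Ab1, H2-Eb1 and Cd74 (plus 1, log axis), after each cell was thinned to 2000 UMIs, by cell class and library. In macrophages with Lyve1 the curves lie apart, with 20.1%, 37.1% and 92.6% of cells at 0 to 9 UMIs in WT_Ctrl, WT_UV and RP_UV. In macrophages without Lyve1 these shares are 3.70%, 32.4% and 82.8%. In Cd209a dendritic cells the curves lie close together, with medians of 183, 124 and 146.

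When macrophages were split by their own Lyve1 UMIs, in place of clusters, the libraries kept this order. Among thinned cells with no Lyve1 UMI the median was 77.5 UMIs of the 4 major genes in WT_Ctrl, 22 in WT_UV and 1 in RP_UV (1130, 1303 and 1187 cells). Among those with at least 1 it was 28, 11 and 1 (302, 270 and 610 cells). Since a median of 1 is the level of a single UMI, it cannot show a difference in RP_UV. The means without and with a Lyve1 UMI were 78.6 and 35.1 UMIs in WT_Ctrl, 33.0 and 17.4 in WT_UV, and 6.96 and 3.20 in RP_UV, so that cells without Lyve1 held more in each library.

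Cells between macrophages and monocytes had higher levels than macrophages in every library, with 52434 CPM of the 4 major genes in WT_Ctrl (56 cells), 32495 CPM in WT_UV (500 cells) and 13402 CPM in RP_UV (321 cells). The sum was 1.61 times lower in WT_UV (1.59 to 1.64) and 2.42 times lower in RP_UV than in WT_UV (2.39 to 2.46). Here too the libraries filled clusters unevenly. Of the 321 cells of RP_UV, 172 were in a cluster at 3443 CPM with under 20 cells of any other library, and of the 56 of WT_Ctrl, 50 were in another at 54450 CPM. WT_Ctrl shared 0 clusters of 20 or more cells with either other library. The 2 that WT_UV and RP_UV shared had 35902 against 25655 CPM, 1.40 times lower in RP_UV (1.35 to 1.45), and 32355 against 24808 CPM (lower by 1.28 to 1.33 times), both smaller folds than that of the whole class. In these cells Ciita was 5.84 times lower in RP_UV than in WT_UV (4.36 to 8.01), at 25.7 against 150 CPM, a larger fold than that of any chain, since H2-Aa was 2.83 times lower (2.74 to 2.92) and H2-Ab1 2.24 times lower (2.17 to 2.31). Of the 8 members measured in these cells, 2, 6 and 8 were at least 2-fold lower for WT_UV over WT_Ctrl, RP_UV over WT_UV and RP_UV over WT_Ctrl, where 6.6%, 4.01% and 8.1% of genes were. Monocytes did not share the lower level of WT_UV. Their sum was 33519 CPM in WT_Ctrl (74 cells) and 36680 CPM in WT_UV (94 cells), a fold of 1.09. The log2 fold of the 9 members was 0.14, and -0.15 with classes from marker UMIs of each cell. Of 8 measured members, 0 were at least 2-fold lower (5.11% of genes) and 1, H2-DMb2, was at least 2-fold higher (7.64% of genes), from 7 and 51 UMIs. The 10 monocytes of RP_UV, under the minimum of 20 cells set for a comparison, had 16378 CPM (15087 to 17749).

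Among classes with at least 20 cells, Cd209a dendritic cells and Langerhans cells carried the highest class II levels in each library, with smaller folds than those of macrophages. Summed over the 4 major genes, Cd209a dendritic cells had 94710, 65136 and 69107 CPM. Langerhans cells (69, 69 and 24 cells) had 83214, 67982 and 78220 CPM, and were the higher in both irradiated libraries. With classes from marker UMIs of each cell, the log2 fold of the 9 members in Langerhans cells, RP_UV over WT_UV, went from 0.19 to -0.66. The order of these classes in RP_UV is therefore not secure. In Cd209a dendritic cells (541, 399 and 147 cells), H2-Aa had 16904 CPM (16760 to 17048), 11498 CPM (11416 to 11580) and 12006 CPM (11778 to 12238). It was 1.47 times lower in WT_UV than in WT_Ctrl (1.45 to 1.49) and slightly higher in RP_UV than in WT_UV, by a fold of 1.04. The log2 fold of the 9 members from WT_UV to RP_UV was 0.09, and -0.043 with a limit of 4000 genes in every library and -0.090 with median of ratios scaling, so it has no stable direction. H2-Ab1 had 18789, 12458 and 14645 CPM, and Cd74 had 42539, 30337 and 29788 CPM. As a whole class, both irradiated libraries lay below WT_Ctrl for H2-Aa, H2-Ab1 and Cd74, but the libraries filled its clusters unevenly. In WT_Ctrl, 99 and 95 cells were in a pair of clusters at 125092 and 134963 CPM of the 4 major genes that held under 20 cells of RP_UV. In RP_UV, 90 of the 147 cells were in a cluster at 68976 CPM that held 162 cells of WT_UV at 57122 CPM and under 20 of WT_Ctrl. The level was lower in WT_UV than in WT_Ctrl in 4 of the 4 clusters they shared, by 1.24 to 1.37 times, and lower in RP_UV than in WT_UV in 1 of 3. The peptide exchange genes did not follow: H2-DMa had 1449 CPM (1407 to 1492), 1425 CPM (1397 to 1455) and 1497 CPM (1417 to 1580), intervals that overlap, and H2-DMb1 had 832, 866 and 1161 CPM. H2-DMb2, rare in macrophages, had 124, 161 and 145 CPM.

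Within Cd209a dendritic cells, H2-Oa and Ciita stood apart from the chains. H2-Oa, the restraint on H2-DM, had 114 CPM (102 to 126), 48.3 CPM (43.2 to 53.9) and 44.6 CPM (31.7 to 61.0) in WT_Ctrl, WT_UV and RP_UV. It was 2.35 times lower in WT_UV than in WT_Ctrl (2.02 to 2.74), the only one of the 9 members at least 2-fold lower in that contrast, against 1.12% of the 5340 genes measured. Ciita had 219 CPM (203 to 236), 231 CPM (220 to 243) and 120 CPM (98.2 to 145), so that it was level in the wild-type libraries and 1.93 times lower in RP_UV than in WT_UV (1.58 to 2.37). From WT_UV to RP_UV, 0 of 9 members were at least 2-fold lower against 4.11% of genes, and from WT_Ctrl to RP_UV 1 of 9, H2-Oa, against 7.45%. H2-Ob, which pairs with H2-Oa and is no member, had 82.7, 46.4 and 26.3 CPM in these cells. Clusters of Cd209a dendritic cells that every library shared had 80316, 64719 and 78061 CPM of the 4 major genes in one and 85004, 67436 and 59123 CPM in another, so that RP_UV was 1.03 times (1.01 to 1.05) and 1.44 times (1.40 to 1.48) below WT_Ctrl. Thinned Cd209a dendritic cells held medians of 183, 124 and 146 UMIs of the 4 genes, and 100%, 100% and 98.5% of them held at least 1.

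Type 1 dendritic cells, which cross-present antigen to CD8+ T cells, had 60105 CPM of the 4 major genes in WT_Ctrl (69 cells) and 44096 CPM in WT_UV (38 cells), 1.36 times lower (1.34 to 1.38). Of the 9 members, 0 were at least 2-fold lower there, where 3.94% of genes were. Mature dendritic cells had 46522 CPM in 17 cells of WT_Ctrl and 49225 CPM in 36 cells of WT_UV. Only 9 type 1 and 3 mature dendritic cells were found in RP_UV, too few for a comparison.

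In Langerhans cells, the antigen-presenting cells of the epidermis, the levels of the chains lay close together (69, 69 and 24 cells). H2-Aa had 14334 CPM (13928 to 14748), 11077 CPM (10868 to 11289) and 12944 CPM (12244 to 13674). H2-Ab1 had 17318, 13962 and 18778 CPM. Cd74 had 36222, 30656 and 31398 CPM. The sum of the 4 major genes was 1.22 times lower in WT_UV than in WT_Ctrl (1.21 to 1.24) and 1.06 times lower in RP_UV (1.04 to 1.09), so that RP_UV lay nearer to WT_Ctrl than WT_UV did. Of the 69 cells of WT_Ctrl, 65 were in a cluster with under 20 cells of the other libraries, whereas 51 of WT_UV and 23 of RP_UV shared another. With classes from marker UMIs of each cell this order was lost, since the log2 fold of the 9 members for RP_UV over WT_UV went from 0.19 to -0.66. H2-DMa had 2126, 1916 and 1529 CPM. Ciita had 279 CPM (225 to 342), 244 CPM (214 to 277) and 132 CPM (70.1 to 225), the last from 13 UMIs. Of the 9 members, 0 were at least 2-fold lower in WT_UV than in WT_Ctrl (6.62% of genes), 1 from WT_UV to RP_UV (H2-Oa, 13.7% of genes) and 2 from WT_Ctrl to RP_UV (H2-Oa and Ciita, 17.1% of genes). The 2 UMIs of H2-Oa in RP_UV leave its fold with an interval of 1.14 to 38.8 times lower.

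Innate lymphoid cells, lymphocytes without antigen receptors that can carry class II in some tissues, stood far below the antigen-presenting classes of the wild-type libraries. Their sum of the 4 major genes was 942 CPM (769 to 1142) in 35 cells of WT_Ctrl and 983 CPM (920 to 1049) in 131 cells of WT_UV, and the 4 cells of RP_UV gave 0 UMIs, which allows up to 599 CPM by the Poisson interval. In WT_Ctrl and WT_UV, keratinocytes lay lower, at 373 and 343 CPM, while T cells had 2900 and 884 CPM. In WT_Ctrl, 5 of 193 thinned T cells held 60 or more UMIs of the 4 genes, which raised that sum. Ciita gave 0 UMIs in innate lymphoid cells of WT_Ctrl (up to 33.7 CPM) and 5 UMIs in those of WT_UV. After thinning, 56.2% of innate lymphoid cells in WT_Ctrl and 67.7% in WT_UV held a UMI of the 4 genes, at a median of 1, against 49.7% and 48.5% of T cells and 28.1% and 37.2% of keratinocytes. H2-Oa stood above its level in macrophages, with 26 UMIs and 28.1 CPM (18.4 to 41.2) in innate lymphoid cells of WT_UV, beside 7.58 CPM (4.81 to 11.4) in T cells and 0.593 CPM (0.306 to 1.04) in macrophages of that library. WT_Ctrl held 1 UMI of H2-Oa in these cells (9.14 CPM, 0.231 to 50.9), so its fold has no useful precision.

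Classes that should lack class II gave a floor that itself differed between libraries. Keratinocytes had 373, 343 and 70.7 CPM of the 4 major genes, fibroblasts 191, 257 and 63.1 CPM, endothelial cells 490, 239 and 71.8 CPM, and T cells 2900, 884 and 207 CPM. Of 193 thinned T cells of WT_Ctrl, 182 held 0 to 9 UMIs of the 4 genes and 5 held 60 or more. In WT_UV, 0 of 443 held 60 or more. The T cell sum of WT_Ctrl was thus raised by few cells and is not a floor alone. All cells together had 30517, 26652 and 6398 CPM. In these 4 classes the level was lowest in RP_UV, as it was in all cells together, but this did not hold for every such class. Pericytes and smooth muscle cells had 214, 337 and 559 CPM (52, 19 and 178 cells), highest in RP_UV. Mast cells had 1353, 5385 and 1671 CPM (31, 99 and 47 cells). In each library the macrophage sum stood far above that of keratinocytes. Neutrophils were different in RP_UV, with 569, 2564 and 10546 CPM. There, 231 of the 588 neutrophils formed a cluster at 23646 CPM, in which the median cell held 1 UMI of the 4 genes and the cell at the 90th percentile 212, whereas the clusters of 191, 85 and 74 other neutrophils had 526, 613 and 191 CPM. The cluster of 231 cells was split from a larger one that also gave clusters named Cd209a dendritic cells, unlike the other neutrophil clusters. In neutrophils of RP_UV the Cd209a dendritic cell markers summed to 825 CPM, against 98.4 CPM in WT_UV, and their part in the neutrophil values was not tested.

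The members kept their proportions in part. Per UMI of H2-Aa, macrophages held 0.898, 0.836 and 0.846 UMIs of H2-Ab1, 0.870, 0.798 and 0.828 of H2-Eb1, and 1.99, 2.32 and 2.28 of Cd74. These ratios differed far less between the libraries than the levels themselves. H2-DMa per H2-Aa did not stay level, with 0.0741 (0.0716 to 0.0767), 0.106 (0.103 to 0.109) and 0.261 (0.245 to 0.277) in the same order. The same ratio was 0.0857, 0.124 and 0.125 in Cd209a dendritic cells and 0.148, 0.173 and 0.118 in Langerhans cells. H2-DMb1 per H2-DMa, the chains of one heterodimer, was 0.586, 0.676 and 0.550 in macrophages.

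The share of class II RNA that each class contributed also differed. Cd209a dendritic cells, 10.2%, 7.64% and 2.42% of cells, held 37.7%, 25.1% and 32.4% of the UMIs of the 4 major genes in their library. Macrophages without Lyve1, 19.5%, 21.1% and 20.5% of cells, held 22.4%, 12.3% and 11.5%. Macrophages with Lyve1 held 5.62%, 3.39% and 2.39%, and the cells between macrophages and monocytes 1.75%, 11.2% and 13.2%. Unnamed clusters held 22.0%, 37.4% and 26.9% of these UMIs.

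The other genes of antigen presentation were compared in macrophages by list. For the 7 measured members the median log2 fold was -1.34 for WT_UV over WT_Ctrl, -2.41 for RP_UV over WT_UV and -3.77 for RP_UV over WT_Ctrl, where all measured genes had medians of 0.04, -0.01 and 0.05. The list of factors that act with Ciita on class II promoters (Rfx5 and its partners, the NF-Y subunits, Creb1 and interferon factors) had medians of -0.18, -0.17 and -0.47. Of its 12 genes, 8, 9 and 9 were measured and only Irf4 was at least 2-fold lower, in both contrasts with RP_UV. Among all measured genes, 0.719%, 2.27% and 3.84% were at least 2-fold lower in the 3 contrasts. Irf4 had 35.4, 37.9 and 13.6 CPM in macrophages. The 8 processing genes, proteases and a thiol reductase that cut or unfold antigen and Cd74, went the other way, with medians of 0.40, 0.42 and 0.87. Ctsl had 557, 925 and 1658 CPM, Ctsd 529, 644 and 1371 CPM, and Ifi30 420, 626 and 933 CPM, each past 2-fold higher from WT_Ctrl to RP_UV. In the 3 contrasts 0, 1 and 3 of the 8 were at least 2-fold higher, where 1.27%, 1.46% and 4.25% of genes were. Ctss, the main protease of Cd74 in dendritic cells, had 1279, 1792 and 1524 CPM. In costimulation, 2 of 6 genes were measured, with medians of -0.22, -0.72 and -0.94. Of these, Cd40, the receptor for T cell help, was at least 2-fold lower in both contrasts with RP_UV. It had 50.1, 39.4 and 17.8 CPM, while Cd86 had 98.3, 92.1 and 72.3 CPM. March1, the ligase that removes class II from the cell surface, was the only one of 5 turnover genes past 2-fold, from 162 CPM in WT_Ctrl and 119 CPM in WT_UV to 69.3 CPM in RP_UV. The turnover genes had medians of -0.44, -0.18 and -0.92, below those of all measured genes. The interferon gamma receptor and its kinases, with 4 of 6 measured, had medians of 0.08, -0.15 and -0.07 and no gene past 2-fold. H2-Ob had 5.08, 2.62 and 0.763 CPM, under the level required.

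**Figure D5:**
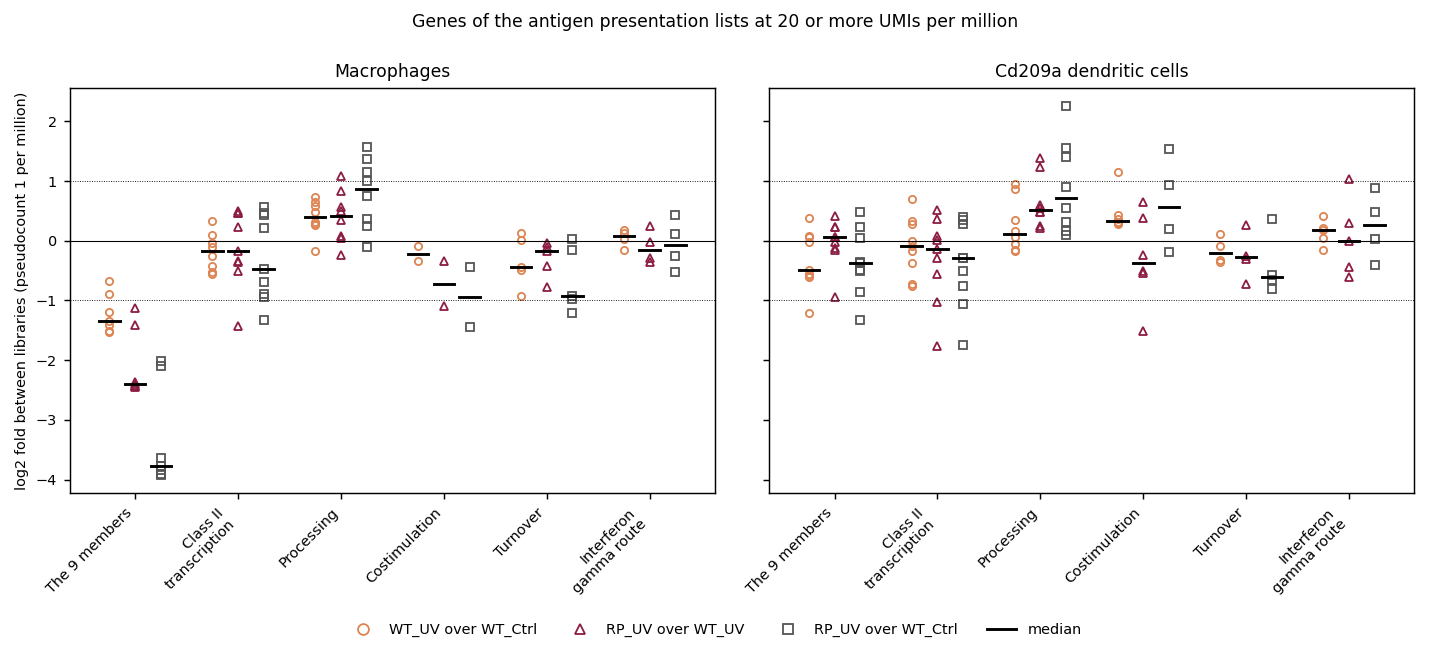
log2 fold between libraries (pseudocount of 1 CPM) of each measured gene of the antigen presentation lists, by list and cell class, with black bars at the medians. In macrophages the class II members have medians of -1.34, -2.41 and -3.77 in the 3 contrasts, and the processing genes have medians of 0.40, 0.42 and 0.87.

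Over all 41 profiles of class and library with at least 30 cells, the genes whose level was most like the mean log2 level of the 4 major genes were Cd86 (Pearson r of 0.908), Csf2ra (0.897), Rnase6 (0.893), Tbc1d9 (0.887), Irf5 (0.869), Rassf4 (0.869), Ctss (0.863) and Ptpro (0.856), of 5257 genes compared. The profiles share libraries and depth, so r is a description. Of the members, H2-DMa had 0.972, H2-DMb1 0.955, Ciita 0.944, H2-DMb2 0.803 and H2-Oa 0.605. In macrophages Rnase6 had 61.1, 21.3 and 8.97 CPM and Rassf4 306, 189 and 140 CPM, in the order of the class II genes, whereas Csf2ra had 127, 105 and 115 CPM and Irf5 57.3, 52.6 and 67.7 CPM.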

How the data were processed

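The deposited files hold unnormalized UMI counts of each gene in each called cell of 3 libraries, with 5977 (WT_Ctrl), 6149 (WT_UV) and 7240 (RP_UV) barcodes and totals of 34985549, 82722013 and 37689836 UMIs. The matrices name Cell Ranger 6.1.1, and the submitters' processing notes name mm10. The annotation used for counting is not given in the sources used here.

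Cells with under 10% mitochondrial UMIs, more than 200 genes and fewer than 4000 genes (6000 in WT_UV) were kept, as in the study. The higher limit retained 1112 cells of WT_UV with 4000 genes or more. SCTransform normalization (sctransform 0.4.2) and integration of the libraries in Seurat 5.3.0 (R 4.3.3; 3000 features, 30 dimensions, resolution 0.8) gave 30 clusters. Those of 100 or more cells were split again with Leiden clustering (scanpy 1.11.5, leidenalg 0.10.2, resolution 0.5), giving 147 clusters in 21 named classes. Class II genes were left out of clustering and naming. Clusters were named from fixed marker lists. A macrophage cluster counted as having Lyve1 at 200 CPM or more, a limit set after the clusters had been seen. Doublets were not removed, since the study names no caller for them.

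For each library and class, the UMIs of a gene over all cells were divided by those of all genes. Folds were called at 2-fold among genes with at least 20 CPM in 1 of the libraries compared, in classes of at least 20 cells in each, and log2 folds had a pseudocount of 1 CPM. Per-cell shares used cells thinned to 2000 UMIs. With 1 library in a group, no test, SD or p-value was computed. The scripts were checked on simulated counts with known folds. The members, gene lists and markers were chosen with earlier results of these data known. Named genes were the members, list genes past 2-fold in macrophages, and the 8 genes most like the group among those with at least 100 CPM in a profile. Promoter sequences came from RefSeq (GRCm38.p6). A few further genes (Ctss, Cd86, H2-Ob and marker genes) are named outside that rule, after their values were seen.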

Additional observations from a re-analysis of the deposited data

How the results depend on the processing

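No paired analysis was possible because each group has 1 library. In macrophages, the log2 fold of the 9 members summed kept its direction in 10 of 10 alternatives in each contrast. For WT_UV over WT_Ctrl it was -1.33, and became -1.03 with the members kept among the clustering features, -1.35 without integration, -1.38 with classes from marker UMIs of each cell, -0.95 with a limit of 4000 genes in every library, -1.37 without the top 5% of Scrublet scores, -1.12 as a mean over cells, -1.37 when scaled without the members, -1.36 with median of ratios scaling and -1.36 after subtraction of the keratinocyte level. For RP_UV over WT_UV it was -2.36, and became -2.19 (members kept), -2.47 (no integration), -2.08 (marker UMIs), -2.75 (4000 genes), -2.28 (mean over cells) and -2.34 (median of ratios). For RP_UV over WT_Ctrl it was -3.70, and became -3.22 (members kept), -3.82 (no integration), -3.46 (marker UMIs), -3.74 (Scrublet), -3.40 (mean over cells), -3.75 (scaled without the members) and -3.73 (keratinocyte level subtracted). With the members kept among the clustering features, 773, 1421 and 2011 cells were named macrophages.

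Small folds in other classes turned direction. The fold of monocytes, WT_UV over WT_Ctrl, went from 0.14 to -0.15 with marker UMIs. That of Cd209a dendritic cells, RP_UV over WT_UV, went from 0.09 to -0.043 with 4000 genes and to -0.090 with median of ratios scaling. That of Langerhans cells, RP_UV over WT_UV, went from 0.19 to -0.66 with marker UMIs. The cause was not tested.

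The share of macrophages with a UMI of H2-Aa was 88.1% in WT_Ctrl and 77.3% in WT_UV with the members kept, 92.3% in WT_Ctrl without integration and 84.7% in WT_UV with 4000 genes. Thinned to 1000 UMIs it was 88.6%, 68.5% and 20.9%, and to 4000 UMIs 96.6%, 86.1% and 32.2%. The median log2 fold of the processing genes was 0.24 for WT_UV over WT_Ctrl with 4000 genes. For RP_UV over WT_UV it was 0.38 with the members kept, 0.35 with marker UMIs and 0.66 with 4000 genes, and for RP_UV over WT_Ctrl 0.71 with the members kept and 0.82 without integration. The 9 members in keratinocytes summed to 399, 369 and 82.2 CPM, to 249, 251 and 123 CPM without integration, and in WT_UV to 316 CPM with 4000 genes and 269 CPM without the highest Scrublet scores. Depth limits H2-Oa and H2-DMb2 in macrophages. The number of cells limits every member in the monocytes, type 1 and mature dendritic cells of RP_UV, with 10, 9 and 3 cells.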
